A study of Mus musculus with 48 samples.

Results

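The genes described here encode scaffold, signalling and receptor-clustering proteins of the postsynaptic density and adhesion proteins that join the opposing membranes of a synapse. They form a list of 41 mouse genes, taken by symbol from the annotation of the arrays' probes. A gene was kept when a probe of it had a detection p under 0.01 on at least 6 of 48 arrays, and its probe of highest mean intensity stood for it. In all, 29 of the 41 genes were measured, among 9869 genes with such a probe. No annotated probe was found for Shank2, Nptxr, Slitrk5 and Cadm2. Probes of Shank1, Rasgrf2, Nptx1, Nptx2, Lrrtm3, Lrrtm4, Lrfn1 and Slitrk3 were detected on too few arrays. Of the 29 measured genes, 20 were detected on all 48 arrays.

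RNA came from dissociated cortical neurons of CD-1 mice, an outbred stock, kept for 7 days in a serum-free neuronal medium. Cultures received a compound or a control treatment for 1 h, then NMDA in a hypotonic salt solution for 1 h, and recovered for 16 h with the compound or control in fresh medium. Each sample was hybridised to 1 Illumina MouseWG-6 array, 6 arrays to a chip on 8 chips. By the labels' class and mechanism, 4 arrays carried a protective compound named as an NMDA receptor antagonist (MK-801, memantine, ifenprodil and riluzole). Another 10 carried other protective compounds with protection ratios of 1.40 to 2.76, 6 carried non-protective compounds with ratios of 0.61 to 0.98, and 18 carried compounds that the labels put in neither class. The 10 controls were 5 vehicle cultures (DMSO) and 5 mock cultures (water). By the labels the compounds were in water, DMSO or ethanol, and no control received ethanol. Those in ethanol were phenytoin, clofibric acid, indomethacin, 4-PPBP, simvastatin, ethyl ferulate, necrostatin-1, mifepristone and nimodipine. All of these cultures, controls included, had been exposed to NMDA, so no value compares exposed with unexposed neurons. The sources used here give neither the doses nor the assay behind the protection ratio. Each compound had 1 array, apart from a repeat for Z-VAD-FMK and one labelled MitoPBN2 for MitoPBN. The labels do not say whether samples of a group came from separate cultures, and p-values then measure the spread between these samples.

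The postsynaptic density is a protein layer beneath the receiving membrane of an excitatory synapse. There, proteins of the DLG family hold glutamate receptors, including NMDA receptors, and bind DLGAP proteins, which in turn bind SHANK and HOMER scaffolds, while the calcium- and calmodulin-dependent kinase CaMKII reads the calcium that enters. Across the cleft, neurexins of the sending neuron bind neuroligins and LRRTM proteins of the receiving one, and SALM, SLITRK and SynCAM proteins form further bridges.

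The synaptic genes rose together where an NMDA receptor antagonist had been given, and none fell. In the fit, 25 of the 29 genes rose at an adjusted p under 0.05 (limma, 4 arrays against 10), where 18.7% of all 17815 probes passed in either direction and 10.9% of all probes were higher. The median difference of the 29 genes was 1.01 on the log2 scale, against -0.05 for all probes tested, and all 29 differences were positive. The largest was that of Lrfn5, a leucine-rich repeat adhesion protein of the SALM family, at 2.65 (6.29-fold, SE 0.57, adjusted p = 0.0018). Camkv, a kinase-like protein of dendritic spines without known kinase activity, followed at 2.54 (5.81-fold, SE 0.460, adjusted p = 0.00049). Chl1, the close homologue of the neural adhesion protein L1, differed by 2.45 (5.46-fold, SE 0.364, adjusted p = 0.000127). The 4 genes that did not pass were Nrgn (0.51, adjusted p = 0.054), Baiap2 (0.45, adjusted p = 0.081), Nlgn1 (0.38, adjusted p = 0.62) and Nlgn3 (0.33, adjusted p = 0.070). Position on the chip was unevenly spread, since 8 controls lay at the first position and 2 at the second, and the 4 antagonists at the fourth to the sixth. When position was a term, the median difference was 1.25, and 18 genes and 7.38% of all probes passed. No antagonist shared a position with a control, and the first position held controls only. The control level in that fit thus rested on vehicle controls 4 and 5, at the second position, linked to the antagonists through other compounds. Their mean centred levels of the 29 genes (-0.62 and -0.66) were the lowest among the controls. The 1.25 therefore cannot be read as a difference corrected for position. Calls were lost for Dlg4 (1.18, adjusted p = 0.134), Dlgap3 (0.94, adjusted p = 0.071), Shank3 (0.68, adjusted p = 0.159), Homer1 (0.96, adjusted p = 0.0504), Homer2 (1.25, adjusted p = 0.053), Ppp1r9b (0.63, adjusted p = 0.142) and Camk2a (0.68, adjusted p = 0.28).

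**Figure D1:**
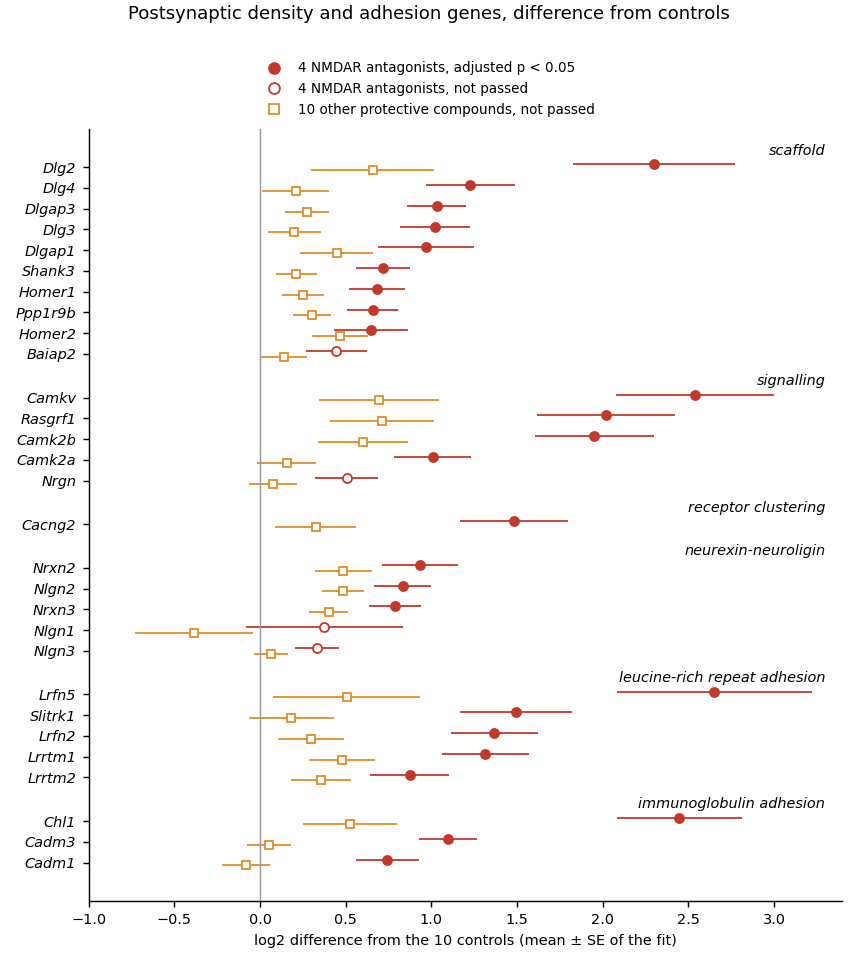
Log2 difference of each of the 29 genes between antagonist and control arrays (circles) and between other protective compounds and controls (squares) on the x axis, grouped by role on the y axis. Bars are the SE of the fit, and filled symbols passed the threshold. All 29 circles lie right of 0, and Lrfn5, Camkv, Chl1, Dlg2 and Rasgrf1 lie above 2.

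The 250 bases before the transcript start are shown for the 3 genes with the largest rises and, for contrast, for Shank3, a scaffold gene whose rise stayed below 1 log2 unit. They are RefSeq sequences of build GRCm38.p6, read 5′ to 3′ on the gene's strand, with GC boxes (GGGCGG, or CCGCCC on the other strand) and E boxes (CANNTG, the same on both strands) in capitals. The windows lie at chr12:61522917-61523166 (Lrfn5), chr9:107935670-107935919 (Camkv), chr6:103510626-103510875 (Chl1) and chr15:89499358-89499607 (Shank3), all on the + strand.
Lrfn5: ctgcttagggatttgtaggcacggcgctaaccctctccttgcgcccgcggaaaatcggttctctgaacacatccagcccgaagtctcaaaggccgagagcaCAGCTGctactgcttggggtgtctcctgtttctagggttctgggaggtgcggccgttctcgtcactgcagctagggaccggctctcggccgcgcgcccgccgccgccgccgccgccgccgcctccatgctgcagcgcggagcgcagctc
Camkv: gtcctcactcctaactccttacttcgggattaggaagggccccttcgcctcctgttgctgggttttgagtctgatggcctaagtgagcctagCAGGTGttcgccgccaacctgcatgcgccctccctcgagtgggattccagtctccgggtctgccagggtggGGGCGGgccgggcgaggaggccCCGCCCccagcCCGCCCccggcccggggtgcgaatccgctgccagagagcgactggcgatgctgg
Chl1: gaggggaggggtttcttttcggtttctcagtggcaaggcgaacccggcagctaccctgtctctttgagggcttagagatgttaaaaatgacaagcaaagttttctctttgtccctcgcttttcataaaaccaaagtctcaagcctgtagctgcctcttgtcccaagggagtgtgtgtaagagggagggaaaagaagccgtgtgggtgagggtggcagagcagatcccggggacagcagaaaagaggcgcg
Shank3: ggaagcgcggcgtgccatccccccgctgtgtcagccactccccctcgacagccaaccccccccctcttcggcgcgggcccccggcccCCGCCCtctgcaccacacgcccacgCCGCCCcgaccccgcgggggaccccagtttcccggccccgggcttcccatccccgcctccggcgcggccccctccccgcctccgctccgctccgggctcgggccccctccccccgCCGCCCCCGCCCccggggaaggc
The Lrfn5 window has 66.4% G and C, 0 GC boxes and 1 E box. Camkv has 67.6%, 3 GC boxes and 1 E box, Chl1 has 52.4% and neither motif, and Shank3 has 82.4%, 4 GC boxes and 0 E boxes. No GC box overlaps an E box in these windows. RefSeq windows were matched for 23 of the 29 measured genes, 34 windows in all, with a median of 56.0% G and C, against 52.4% over all 32851 windows. A GC box was present in 10 of the 34 windows, against 32.7% of all windows, and an E box in 21 of 34, against 66.2% of all. The cAMP response element TGACGTCA, bound by CREB, was in 0 of the 34, against 1.55% of all windows. The sequence TTCAGCACC, a part of the RE1 element that is bound by the repressor REST, was in 1 of 34, that of Nlgn1, against 0.301% of all. The motif matches describe letters in these windows, and binding was not measured.

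Of the scaffold genes, 9 of 10 rose, with a median difference of 0.84 over the 10. Dlg2, which encodes a membrane-associated guanylate kinase that anchors receptors, had log2 intensities of 9.0 (MK-801), 8.05 (memantine), 8.99 (ifenprodil) and 8.45 (riluzole). Its values were 5.57, 7.07 and 8.03 (lowest, median, highest) in other protective compounds and 5.57, 6.25 and 8.25 in controls. Memantine was thus the 1 antagonist array below the highest control, which was vehicle control 1. The difference between antagonists and controls was 2.30 (4.92-fold, SE 0.473, adjusted p = 0.0013).

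Dlg3, the X-linked member of the same family, read 9.68 with MK-801, 9.27 with memantine, 9.33 with ifenprodil and 9.05 with riluzole. In controls it ran 7.88, 8.18 and 9.15 (lowest, median, highest), so that only vehicle control 1 lay above an antagonist array, that of riluzole. It rose by 1.02 (SE 0.205, adjusted p = 0.0010). Dlgap3, a linker between DLG and SHANK proteins, was dim, detected on 3 of 4 antagonist arrays and on 1 of 10 control arrays. Its log2 intensities of 6.11, 5.58, 5.80 and 6.19 in MK-801, memantine, ifenprodil and riluzole all lay above the controls at 4.59, 4.87 and 5.46 (lowest, median, highest), and it rose by 1.03 (SE 0.173, adjusted p = 0.00028).

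The remaining scaffold genes rose by less, with the exception of Dlg4, which encodes the most studied scaffold of excitatory synapses and rose by 1.23 (adjusted p = 0.0016). Dlgap1 rose by 0.97 (adjusted p = 0.0157), Shank3 by 0.72 (adjusted p = 0.0022) and Homer1 by 0.68 (adjusted p = 0.0042). Shank3 links the DLGAP layer to HOMER proteins and actin, and HOMER proteins tie it to metabotropic glutamate receptors. Ppp1r9b, or spinophilin, which brings protein phosphatase 1 to spines, rose by 0.66 (adjusted p = 0.0027), and its 4 antagonist arrays all lay above the 10 controls. Homer2 rose by 0.65 (adjusted p = 0.035), with no antagonist array (8.72 to 9.20) above the highest control (9.36, vehicle control 1). With chip as a block its difference was 0.55 and no longer passed (adjusted p = 0.060), and the call was also lost without ifenprodil, MK-801 or riluzole (adjusted p = 0.101, 0.123 and 0.098). Baiap2, an adaptor protein of the actin cytoskeleton, averaged 6.53 ± 0.32 in antagonists (SD, n = 4) and 6.08 ± 0.31 in controls (SD, n = 10) and did not pass. It passed with chip as a block, at 0.67 (SE 0.175, adjusted p = 0.0108).

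Signalling genes had the highest median of the roles with more than 1 gene, 1.95 over 5 genes, of which 4 rose. Camk2b, the beta subunit of CaMKII, which binds actin, read 11.62 with MK-801, 11.43 with memantine, 11.62 with ifenprodil and 11.29 with riluzole. The other protective compounds ran 9.13, 10.23 and 10.80 (lowest, median, highest) and the controls 9.04, 9.28 and 11.10, so that the antagonist arrays lay above both groups. It rose by 1.95 (3.87-fold, SE 0.348, adjusted p = 0.00044).

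Camkv read 9.99, 9.29, 9.60 and 9.28 with MK-801, memantine, ifenprodil and riluzole, against 6.28, 6.77 and 9.01 (lowest, median, highest) in controls. Rasgrf1, a calcium-activated exchange factor for Ras, read 9.36, 9.07, 8.99 and 8.57 in the same order of antagonists, against 5.97, 6.85 and 8.50 in controls, and rose by 2.02 (4.06-fold, SE 0.402, adjusted p = 0.00097). In both genes the highest control was vehicle control 1, and it lay below all 4 antagonist arrays. Camk2a, the alpha subunit of CaMKII, rose by 1.01 (adjusted p = 0.0026), though 2 controls lay above its lowest antagonist array (7.16, riluzole). Nrgn, or neurogranin, which binds calmodulin, was near the detection limit, with 2 of 4 antagonist arrays and 1 of 10 controls detected, and did not pass.

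Cacng2, also called stargazin, carries AMPA receptors to the synapse and was the 1 measured gene of the receptor-clustering role. It read 8.36, 7.33, 7.87 and 7.51 with MK-801, memantine, ifenprodil and riluzole, against 5.72, 6.18 and 7.69 (lowest, median, highest) in controls. The gene rose by 1.48 (2.8-fold, SE 0.316, adjusted p = 0.0017), and vehicle control 1 exceeded the memantine and riluzole arrays.

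Among neurexins and neuroligins 3 of 5 rose, with a median difference of 0.79. Nrxn3, a neurexin gene, read 8.75 with MK-801, 9.0 with memantine, 9.19 with ifenprodil and 8.40 with riluzole, against 7.61, 8.03 and 8.41 (lowest, median, highest) in controls. It rose by 0.79 (SE 0.150, adjusted p = 0.00073), and only the riluzole array fell below a control. Nlgn2, the neuroligin of inhibitory synapses, read 9.76, 9.31, 9.45 and 9.57 with MK-801, memantine, ifenprodil and riluzole, against 8.39, 8.71 and 9.29 in controls. The groups did not overlap, by a margin of 0.02 between memantine and vehicle control 1, and the difference was 0.83 (SE 0.164, adjusted p = 0.00093). Nrxn2 read 8.95, 8.15, 8.51 and 8.27 with MK-801, memantine, ifenprodil and riluzole, against 7.02, 7.52 and 8.37 in controls, and rose by 0.93 (SE 0.220, adjusted p = 0.0037). Nlgn3 averaged 8.38 ± 0.14 in antagonists (SD, n = 4) and 8.04 ± 0.20 in controls (SD, n = 10).

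Nlgn1, the neuroligin of excitatory synapses, was separated by chip. The 18 arrays of chips 6 to 8 ran 4.52, 4.88 and 5.75 (lowest, median, highest) and the 30 arrays of chips 1 to 5 ran 6.14, 6.55 and 7.27, with no overlap. Nlgn2 did not separate this way, at 8.72, 9.30 and 9.81 on chips 6 to 8 and 8.39, 9.07 and 9.79 on chips 1 to 5. With chip as a block the difference of Nlgn1 between antagonists and controls was 0.24 (SE 0.202, adjusted p = 0.42), and within chips 3, 4 and 7 it was 0.30, 0.14 and 0.51. When a term for array position was added, it turned to -0.52, with the control level again resting on vehicle controls 4 and 5.

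**Figure D2:**
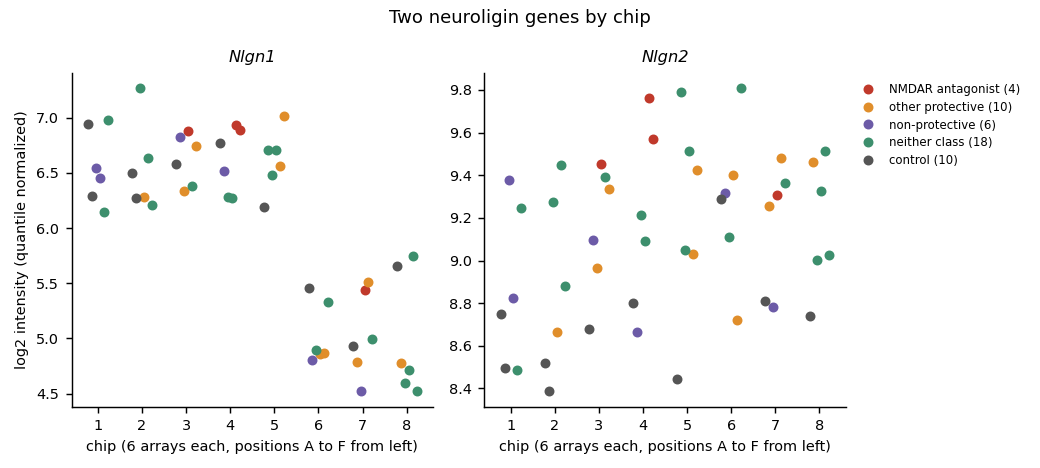
Log2 intensity of Nlgn1 and Nlgn2 on each of the 48 arrays (y axis) by chip (x axis), coloured by group. Nlgn1 lies at 6.14 to 7.27 on chips 1 to 5 and at 4.52 to 5.75 on chips 6 to 8, while the Nlgn2 ranges of the same sets of chips overlap.

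All 5 measured leucine-rich repeat adhesion genes rose, with a median of 1.37. Lrfn2, a SALM protein that binds DLG scaffolds, read 8.25, 8.19, 8.21 and 7.83 with MK-801, memantine, ifenprodil and riluzole, against 6.24, 6.77 and 7.62 (lowest, median, highest) in controls. All 4 arrays lay above every control, and the difference was 1.37 (SE 0.253, adjusted p = 0.00059). Lrrtm1, a postsynaptic partner of neurexins, was detected on 4 of 4 antagonist arrays and 1 of 10 control arrays. Its values were 6.25, 6.41, 6.66 and 6.64 with MK-801, memantine, ifenprodil and riluzole, against 4.77, 5.07 and 6.18 in controls, again without overlap, and it rose by 1.31 (SE 0.255, adjusted p = 0.00082).

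Lrfn5 had the widest spread of the list. It read 9.01 with MK-801, 7.69 with memantine, 9.11 with ifenprodil and 8.85 with riluzole, against 5.16, 5.85 and 8.37 (lowest, median, highest) in controls. Memantine lay below vehicle control 1, whose value of 8.37 stood apart from the other 9 controls. Slitrk1, a transmembrane protein linked to neurite growth and synapse formation, rose by 1.50 (SE 0.327, adjusted p = 0.0021), and Lrrtm2, another neurexin partner detected on 4 of 10 control arrays, by 0.87 (adjusted p = 0.0091).

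The 3 immunoglobulin-type adhesion genes rose too. Chl1 read 8.95, 8.02, 8.54 and 8.61 with MK-801, memantine, ifenprodil and riluzole, against 5.73, 6.74 and 7.59 (lowest, median, highest) in other protective compounds and 5.66, 5.88 and 7.62 in controls. Its antagonist arrays lay above both groups, with the widest gap to the controls of the 29 genes, 0.40. Cadm3, a SynCAM protein of neurons, was detected on 4 of 4 antagonist and 5 of 10 control arrays, with values of 6.80, 6.32, 6.87 and 6.52 in MK-801, memantine, ifenprodil and riluzole, against 5.24, 5.54 and 6.0 in controls. It rose by 1.10 (SE 0.170, adjusted p = 0.00016) without overlap. Cadm1, a SynCAM protein that bridges the cleft, read 10.37, 9.98, 10.57 and 10.10 with MK-801, memantine, ifenprodil and riluzole, against 9.10, 9.48 and 10.16 in controls, and rose by 0.74 (SE 0.183, adjusted p = 0.0053).

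**Figure D3:**
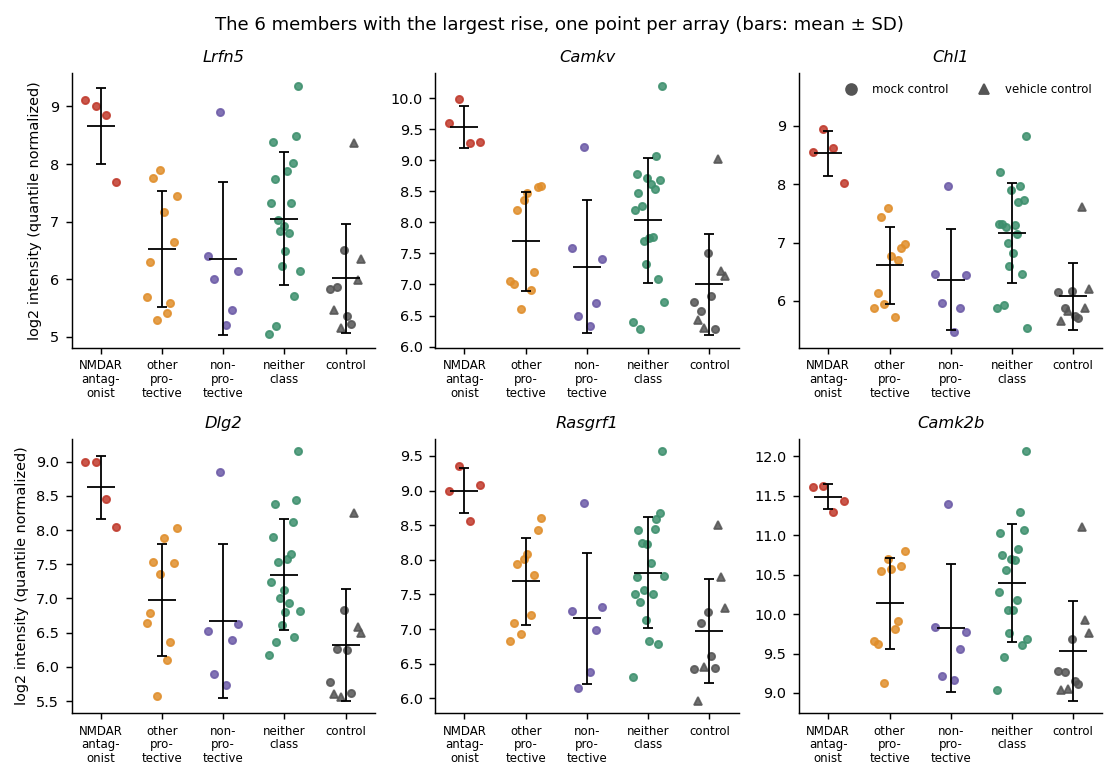
Log2 intensity (y axis) of Lrfn5, Camkv, Chl1, Dlg2, Rasgrf1 and Camk2b on every array, by group (x axis); horizontal bars are means with SD, and triangles among the controls are vehicle cultures. Arrays of other groups overlap the antagonists in each panel, and nimodipine lies above the lowest antagonist array in all 6; in Lrfn5 memantine (7.69) lies below 4-PPBP (8.91), vehicle control 1 (8.37) and rolipram (7.90), among others.

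Across the list, 10 of the 29 genes had all 4 antagonist arrays above all 10 controls (Dlgap3, Ppp1r9b, Camk2b, Camkv, Rasgrf1, Nlgn2, Lrrtm1, Lrfn2, Chl1 and Cadm3), against 3.69% of all probes tested. In Homer2 and Nlgn1 no antagonist array exceeded every control. Within chips that held both groups the median difference of the 29 genes was 1.10 (chip 3), 1.14 (chip 4) and 0.63 (chip 7), with all 29 positive on each. Without vehicle control 1 the count of genes that rose was 27, Nlgn3 and Nrgn being added, at 22.1% of all probes. Scaling each array to the median of all probes on it, most of them not detected, left 12 of the 25 calls (Dlg2, Dlgap3, Camk2b, Camkv, Rasgrf1, Cacng2, Lrrtm1, Lrfn2, Lrfn5, Slitrk1, Chl1 and Cadm3), at a median of all tested probes of -0.27 and with 3.8% of them passing.

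General neuron markers moved with the list. Of 22 listed, 20 were measured, and 19 rose in antagonists against controls, where 10.9% of all probes were higher and 7.74% lower, with a median of 1.07 and a range of 0.45 to 1.87, the highest being Stmn2, a tubulin-binding protein of growing axons. Their mean centred log2 level ran from 0.42 to 1.10 in antagonists and from -0.74 to 0.43 in controls. In bulk RNA fewer neurons and less RNA per neuron cannot be told apart. Non-neuronal markers were present as well: Gfap (astrocytes), Mbp (oligodendrocytes) and C1qa (microglia) were among those detected on all 48 arrays. Of 12 measured astrocyte and radial glia markers 0 rose and 3 fell (Slc1a3, Gja1 and Nes), and their level was -0.38 to 0.01 in antagonists and -0.30 to 0.37 in controls. Of 9 dividing-cell markers 7 fell, with a median of -1.07 and levels of -0.83 to 0.34 in antagonists and -0.24 to 1.08 in controls. None of the measured microglial (7), oligodendrocyte (8), fibroblast and vascular (5) or ependymal (4) markers passed. The part of these other cells in the result was not tested.

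Set against the neuron markers on the same array, the list divided. After the mean of the 20 markers was subtracted from every value, 6 of the 29 genes remained higher in antagonists than in controls: Lrfn5 (1.51, adjusted p = 0.00061), Camkv (1.39, adjusted p = 0.00012), Chl1 (1.30, adjusted p = 3.81e-05), Dlg2 (1.15, adjusted p = 0.00093), Rasgrf1 (0.88, adjusted p = 0.0038) and Camk2b (0.81, adjusted p = 0.00098). On this relative scale 0.696% of all probes were higher. The subtraction lowered every difference between the groups by the same amount and kept their order. That these 6 genes had the largest unadjusted rises, each above the 1.87 of Stmn2, is therefore no separate result. Another 8 genes were lower relative to the markers, where 92.3% of all probes were: Nlgn3 (-0.81), Baiap2 (-0.70), Nrgn (-0.64), Homer2 (-0.50), Ppp1r9b (-0.49), Homer1 (-0.46), Shank3 (-0.43) and Cadm1 (-0.40). The other 15 did not pass in either direction. Without the MK-801 array the same 6 were higher and 3 were lower (Ppp1r9b, Nrgn and Nlgn3). The shares of all probes in that fit are not given here, so these counts stand without a background. The 20 markers divided as well: against their own mean 3 were higher and 4 lower, with a median of -0.07. A division of this kind was thus not particular to the list.

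Over the 48 arrays the genes followed the neuron markers to unequal degrees, given here as a description since the arrays share chips and normalization. Pearson's r with the mean level of the 20 markers was 0.96 for Camkv, 0.95 for Lrfn5, Camk2b and Chl1 and 0.94 for Dlg2. At the low end it was 0.23 for Nlgn1, 0.27 for Baiap2, 0.32 for Nlgn3 and 0.39 for Camk2a. Within the 10 controls alone the values were 0.98 for Camkv, 0.96 for Lrfn5, 0.08 for Camk2a, -0.03 for Baiap2 and -0.38 for Nlgn1.

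**Figure D4:**
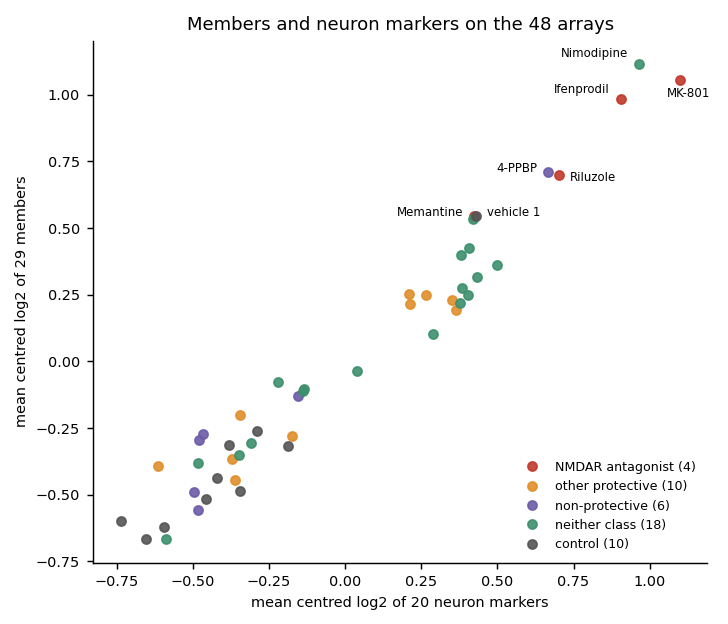
Mean centred log2 level of the 29 genes (y axis) against that of the 20 neuron markers (x axis), 1 point per array, coloured by group. MK-801, nimodipine and ifenprodil lie at the upper right, vehicle control 1 lies beside memantine, and the other 9 controls lie at the lower left.

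The antagonists were next set against the 10 other protective compounds, which asks whether the rise goes with protection in general. Of the 29 genes 14 were higher in antagonists and 0 were lower, with a median difference of 0.82, against 4.37% of all probes passing in either direction (3.45% higher) and a median of -0.05. The general neuron markers moved the same way here, with 7 of 20 higher, 0 lower and a median of 0.73. Lrfn5 differed by 2.15 (4.42-fold, SE 0.57, adjusted p = 0.028), Chl1 by 1.92 (3.79-fold, SE 0.364, adjusted p = 0.0044), Camkv by 1.85 (3.59-fold, SE 0.460, adjusted p = 0.020) and Dlg2 by 1.64 (3.12-fold, SE 0.473, adjusted p = 0.042). Cadm3 had the smallest p of the list, with a difference of 1.04 (SE 0.170, adjusted p = 0.0015). The others that passed were Camk2b (1.35), Slitrk1 (1.31), Cacng2 (1.16), Lrfn2 (1.07), Dlg4 (1.02), Camk2a (0.85), Dlg3 (0.82), Cadm1 (0.82) and Dlgap3 (0.76).

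By role, 3 of 3 immunoglobulin-type, 3 of 5 leucine-rich repeat, 3 of 5 signalling, 4 of 10 scaffold and 0 of 5 neurexin and neuroligin genes passed. Nrxn2, Nlgn2 and Nrxn3, which rose against controls, differed from other protective compounds by 0.45, 0.35 and 0.39 and did not pass here. These counts move with chip as a block, where 18 genes and 7.3% of all probes passed: Nrxn3 (0.57, adjusted p = 0.028), Shank3, Baiap2, Rasgrf1 and Lrrtm1 were added, and Dlg4 was lost (adjusted p = 0.056). Whether these differ less than the other genes was not tested. The count depends on single arrays, as do the calls over all probes: without ifenprodil 2 genes (Chl1 and Cadm3) and 0.528% of all probes passed, and without MK-801 1 gene (Cadm3) and 0.14% of all probes. Within chips the median difference was 0.93 on chip 3 (29 of 29 positive) and 0.47 on chip 7 (26 of 29 positive).

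The other protective compounds themselves were not separated from controls. By limma 0 of the 29 genes and 0.174% of all probes passed. An unadjusted p under 0.05 was found for 10 of the 29 genes and for 3072 of all 17815 probes. The median difference was 0.30, and 27 of 29 were positive. Nlgn2 came closest, at 0.48 (adjusted p = 0.083). With vehicle control 1 left out 3 genes passed (Homer2, Nlgn2 and Nrxn3), and 1.34% of all probes. Controls are shared by this comparison and the one with antagonists, so their values are given side by side only: Camkv differed from controls by 2.54 in antagonists and 0.69 in other protective compounds, and Cadm3 by 1.10 and 0.05 in the same order.

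In non-protective compounds against controls 0 of 29 genes and 0.0168% of all probes passed by limma. An unadjusted p under 0.05 was found for 3 genes (Nrxn2, Nlgn2 and Shank3) and for 1198 of all 17815 probes. The median difference of the 29 genes was 0.20. It was 0.00 without 4-PPBP, whose array stood apart from the other 5 of its class. Mean levels of Camk2b were 9.82 ± 0.82 in non-protective compounds (SD, n = 6) and 9.54 ± 0.63 in controls (SD, n = 10).

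Compounds that the labels put in neither class were compared with the controls as an addition made after the data had been seen, with the 2 repeat arrays averaged into their compounds. Here 7 of 29 genes rose: Chl1 (1.10, adjusted p = 0.0118), Camk2b (0.83, adjusted p = 0.038), Nrxn2 (0.69, adjusted p = 0.0038), Cacng2 (0.66, adjusted p = 0.038), Nlgn2 (0.55, adjusted p = 0.0048), Nrxn3 (0.53, adjusted p = 0.0064) and Ppp1r9b (0.37, adjusted p = 0.0155). The background was 7.62% of all probes in either direction and 4.03% higher, and the median of the 29 genes was 0.43. The count was 20 without vehicle control 1 (13.1% of all probes), 14 with chip as a block (16.8%) and 5 without nimodipine (5.02%).

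Mechanism labels with at least 3 arrays were tested in a single fit, in which repeat arrays counted singly, so that the 3 free radical scavenger arrays are citicoline, MitoPBN and MitoPBN2. The moderated F test over mechanisms called 0 of 29 genes, and 0.14% of all probes. With chip as a block it called 6 (Dlgap3, Nlgn2, Nrxn2, Nrxn3, Lrfn2 and Cadm3) and 3.57% of all probes, and with the repeat arrays averaged, a setting added after seeing the data, 1 (Cadm3) and 0.438%. Against controls, the NMDAR antagonist mechanism had 24 of 29 genes higher, against 14.4% of all probes in either direction, and the 7 other mechanism groups had 0 each. The median difference of the 29 genes was 0.56 for ion channel blockers (0.0281% of all probes passed), 0.45 for free radical scavengers (0.0112%), 0.37 for receptor agonists (0%) and 0.34 for anti-apoptotic compounds (0%). It was 0.34 for enzyme inhibitors (0.314%), 0.30 for immunomodulators (0.185%) and 0.26 for the remaining compounds (0.0954%).

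Protection itself was then used as a scale. On the log2 protection ratio of the 36 compounds 0 of 29 genes had a slope past the threshold, as had 0 of all probes, while 4 genes (Homer1, Homer2, Rasgrf1 and Lrrtm1) and 949 probes had an unadjusted p under 0.05 by limma. The median slope was 0.22 log2 units of expression per log2 unit of the ratio, and the largest were those of Rasgrf1 and Camkv at 0.68 each (SE 0.332 and 0.410). Without the antagonist arrays the median slope was 0.07. It was 0.36 without rolipram and benzamide, whose ratios of 2.76 and 2.01 lie farthest from the median of 1.275 on the linear scale, and 0.22 without rolipram and agmatine (0.61), which lie farthest on the log2 scale.

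Single compounds are described against the mean of the 10 controls, with no test and with chip not taken into account. Vehicle controls 1, 2 and 3, on chips 6 to 8, had the highest medians against the other controls (0.93, 0.20 and 0.14). Of the compounds described below, memantine, nimodipine, mifepristone, Z-VAD-FMK, simvastatin, liothyronine, carbenoxolone, necrostatin-1 and benzamide were on these chips. The other compounds on these chips had medians of 0.03 to 0.27. The part of chip in any of these values was not tested. On the MK-801 array 20 of the 29 genes were at least 1 log2 unit higher, where 5.51% of all probes were, and the median difference was 1.20. Ifenprodil followed with 18 genes (4.95% of probes, median 1.11), riluzole with 12 (2.85%, median 0.88) and memantine with 11 (2.53%, median 0.79). The array most like these came from no antagonist: nimodipine, a blocker of L-type calcium channels in neither class with a ratio of 1.27, had 19 genes at least 1 log2 unit higher (6.87% of probes, median 1.16). Its Lrfn5 was 3.35 and its Camkv 3.20 above the control mean, each higher than with any of the 4 antagonists. Nimodipine was in ethanol, as was 4-PPBP, described next, while no control was, and the part of the solvent was not tested.

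The non-protective compound 4-PPBP, which the labels call a receptor agonist, had 15 genes at least 1 log2 unit higher (4.69% of probes, median 1.00) at a ratio of 0.89. Mifepristone had 13 (3.33%), the first Z-VAD-FMK array 12 (2.44%), simvastatin 9 (2.08%) and liothyronine 9 (2.44%). Clofibric acid had 8 genes higher where 7.90% of all probes were, and MitoPBN had 8 where 3.12% were. Carbenoxolone had 7 (2.71%), and azathioprine (2.45%), MitoPBN2 (1.34%), necrostatin-1 (2.26%) and rolipram (1.40%) had 6 each. Interferon-b1a (1.36%) and resveratrol (1.12%) had 5 each. Minocycline had the lowest median of all compounds, -0.21.

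A high protection ratio did not always go with a high level of these genes. Rolipram, with the highest ratio of 2.76, had a median difference of 0.47. Benzamide had 0.19 at a ratio of 2.01 with 0 genes at least 1 log2 unit higher (1.09% of probes), and moxalactam had -0.05 at 1.79. Neuron markers moved along in these arrays: their median difference was 1.31 with MK-801, 1.35 with nimodipine, 1.29 with ifenprodil, 1.02 with 4-PPBP, 0.61 with rolipram and 0.10 with benzamide.

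Repeat arrays and controls give the scale of variation between arrays of like treatment. The Z-VAD-FMK arrays, on chips 7 and 8, had medians of 0.83 and 0.15 and differed by more than 1 log2 unit in 9 genes, most in Chl1 (2.44). The MitoPBN and MitoPBN2 arrays, which the labels give under these separate names and with ratios of 1.07 and 1.16, may not be the same treatment. They had medians of 0.58 and 0.60, with a largest difference of 0.85 (Dlg2). Vehicle control 1 had a median of 0.93 above the other controls, with neuron markers 0.84 above them. In vehicle against mock controls (5 against 5) limma called 0 of 29 genes and 0 of all probes. An unadjusted p under 0.05 was found for Nlgn1 (-0.88), Dlg4 (0.61) and Baiap2 (0.36), and for 3559 of all 17815 probes. These 3 of 29 genes were thus no larger a share than among all probes. The median difference of the 29 genes was 0.25. All 5 mock controls lay on chips 1 to 5 and vehicle controls 1, 2 and 3 on chips 6 to 8, where Nlgn1 was low. Vehicle and chip are therefore not separate in this comparison. In vehicle controls 4 and 5, on chips 1 and 2, Nlgn1 read 6.30 and 6.27, against 6.20 to 6.94 in mock controls.

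Of the 29 genes, 10 had more than 1 detected probe. Both probes rose in antagonists against controls for Cacng2, Cadm1, Camk2a, Dlg2 and Dlg4. The probes of a gene disagreed in Dlgap1 (1 of 5 passed, 0.48 to 0.97), Homer1 (2 of 3 passed), Nrxn2 (1 of 2 passed, 0.18 to 0.93) and Nrxn3 (1 of 4 passed, -0.06 to 0.79). For Baiap2 0 of 4 passed, with differences of -0.51 to 0.58. Which transcripts each probe reads was not analysed here.

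Other genes of the same structures were taken from lists of 34 further postsynaptic density and 40 further synaptic adhesion genes. In antagonists against controls 10 of 21 measured postsynaptic density genes rose and 0 fell, with a median of 0.41, at the background of 10.9% higher. They included Lin7b (2.39, adjusted p = 0.0021), a partner of the scaffold CASK, Iqsec3 (1.48, adjusted p = 0.0003), an exchange factor of inhibitory synapses, Dlgap2 (1.27, adjusted p = 0.0005) and Ppp1r9a (0.82, adjusted p = 0.0025), the actin-binding neurabin. Of 29 measured adhesion genes 11 rose and 0 fell, with a median of 0.49. Among these were Tenm2 (2.03, adjusted p = 0.0005), a teneurin, Ptprd (1.22, adjusted p = 0.0012), a receptor phosphatase that binds SLITRK proteins, Ncam1 (1.11, adjusted p = 0.0025), the neural cell adhesion molecule, and Adgrl1 (1.06, adjusted p = 0.0008), a latrophilin. Against other protective compounds, where 3.45% of all probes were higher, 2 of 21 and 4 of 29 were.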

How the data were processed

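RNA was measured on 48 arrays, described above. The deposited signal is the mean bead intensity of a probe on a linear scale, exported with BeadStudio per the submitters' processing notes, with neither version nor settings given in the sources used here. Per the file headers a detection p-value follows each signal. All columns could be tied to a sample by name (0 could not). The deposited series matrix, an intensity table of the same arrays, served as an alternative; its scaling is not stated.

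Signals of 46632 probes were corrected for background from the detection p-values (limma's nec with an offset of 16), then quantile normalized and taken to log2. The 17815 probes with a detection p under 0.01 on at least 6 arrays were tested. Symbols come from the platform's old annotation, in which 29976 probes carry 1 symbol and 10 carry several. Differences were fitted with limma 3.58.1 in R 4.3.3 (data.table, version 1.17.8) over antagonists, other protective compounds, non-protective compounds and controls (4, 10, 6 and 10 arrays). P-values are two-sided and adjusted by Benjamini and Hochberg over all tested probes with a threshold of 0.05. Slopes and mechanisms had fits of their own, and the fits were tested on simulated data. Sequences and figures were handled in Python 3.11.15 with numpy 2.4.6, pandas 2.3.3 and matplotlib 3.10.9.

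Precision is limited by the number of arrays, since intensities carry no counts. Median signals were 36.1 to 124, 26.3% to 39.0% of probes were detected per array, and each array's median correlation to the rest was 0.908 to 0.967. The 41 genes, their roles and the other lists were chosen with earlier results of these data known. Any of the 41 genes could be named. Values on single arrays were given for up to 3 genes of a role with the smallest p in antagonists against controls, other listed genes were named for up to 4 smallest p per list, and compounds where at least 5 genes were 1 log2 unit from the control mean. Benzamide, moxalactam, minocycline and agmatine were named beyond that rule, after their values were seen. Alternatives covered normalization, background, filters, chip, position, solvent, probes and single arrays.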

Additional observations from a re-analysis of the deposited data

Results flagged for a closer look

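In 24 of 116 combinations of a gene and a group of 4 to 10 arrays, 1 array lay far from the rest by Dixon's criterion, which chance alone meets in about 1 of 20 groups. The combinations reuse the same arrays, and the genes move together. They are thus not 116 independent checks, and the count cannot be set against that rate. Values are log2 intensities. Only flagged combinations are listed, and the same array can be the highest or lowest of its group in further genes. 4-PPBP was flagged as the highest of the 6 non-protective compounds in 9 genes: Dlg2 (8.85), Dlg4 (8.21), Dlgap1 (10.35), Dlgap3 (6.06), Camk2b (11.39), Nrgn (5.81), Lrfn5 (8.91), Slitrk1 (9.77) and Cadm1 (10.53). Vehicle control 1 was flagged as the highest of the 10 controls in 11 genes: Dlg2 (8.25), Homer2 (9.36), Camk2b (11.10), Camkv (9.01), Nrgn (5.59), Cacng2 (7.69), Nlgn2 (9.29), Lrrtm1 (6.18), Lrfn5 (8.37), Slitrk1 (9.23) and Chl1 (7.62). Their neuron markers were 1.02 (4-PPBP) and 0.84 (vehicle control 1) above the control mean and the other controls. Riluzole was flagged as the lowest antagonist in Camk2a (7.16) and Lrfn2 (7.83), and memantine in Nlgn1 (5.44), the gene separated by chip. Agmatine was flagged as the lowest non-protective compound in Nrxn3 (7.81). No explanation of these arrays was tested.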

How the results depend on the processing

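The count of 25 genes higher in antagonists than in controls lay between 18 and 27 under every alternative except median scaling over all probes (12, a setting chosen after seeing the data, which moved the median of all tested probes to -0.27); it was 22 to 26 without an antagonist array in turn, 24 with median scaling over tested probes and 18 with position as a term. The count of 14 against other protective compounds was 9 with median scaling, 8 with no detection filter, 1 with median scaling over all probes, 10 with position as a term, 17 with no background correction or an offset of 50, 18 with chip as a block, and 1 to 14 without an antagonist array in turn. The share of all probes that passed is given above for only some of these alternatives. For the rest, the counts do not tell whether the listed genes or all probes lost or gained calls. The filter for probes detected on all 48 arrays kept 20 of the measured genes, so its counts have a smaller base. In other protective compounds against controls the count was 3 without vehicle control 1 and 0 otherwise, and in non-protective compounds 0 throughout. Relative to neuron markers the count of 14 was 9 to 16 without an antagonist array or vehicle control 1 in turn. For vehicle against mock controls it was 1 with chip as a random block (Baiap2, higher) and 0 to 1 without a control in turn. The 1 was Nlgn1, the gene separated by chip, which was lower without vehicle control 5. For compounds in neither class it was 14 with chip as a block and 20 without vehicle control 1, against 7. The mechanism test called 6 with chip as a block and 1 with repeat arrays averaged, against 0, and no slope passed under any alternative. Directions reversed for Nlgn1 in antagonists against controls with position as a term (-0.52), and for other probes of Baiap2 (-0.51 and -0.22) and Nrxn3 (-0.0628). The cause of these shifts was not tested. Beyond these, 596 single-gene values kept their direction and side of the threshold, 95 lost it and 7 gained it. Vehicle and mock controls share replicate numbers, and deviations of same-numbered arrays correlated at -0.14, -0.08, -0.07, -0.05 and 0.15. These values gave no sign of pairing but cannot settle it, since most same-numbered arrays lay on different chips. A replicate block gave 0 calls, the same count as without it. Dlgap3, Lrrtm1, Nrgn, Lrrtm2 and Cadm3 were detected on 1, 1, 1, 4 and 5 of 10 control arrays, which limits their differences.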
